A study of Homo sapiens with 8 samples.

Results

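This account covers 10 genes of the interleukin and IL6 family cytokines, taken by name from the genes measured on the arrays: IL1A, IL1B, IL1RN, IL18, IL33 and IL36G of the IL-1 family, IL6, IL11 and LIF of the IL6 family, and IL24 of the IL-10 family. All 10 have a probe among 20296 named genes, and 9 of them were well above background on at least 1 array, as were 15811 of all named genes. RNA came from MCF10A, a line of mammary epithelial cells that does not form tumours, either p53+/+ or p53-/-. Cells of each genotype were left untreated (0 h) or given 0.5 µg/ml of doxorubicin, also called adriamycin (ADR), for 2 h per the labels, and were collected 12, 24 and 48 h later. The paper's methods state another dose for ADR. Each genotype and time point was measured on 1 single-colour array, 8 in all, so no value has a replicate error. How the p53-/- derivative was made is not given in the sources used here, nor is whether it is 1 clone.

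IL-1α and IL-1β are pro-inflammatory ligands of the same receptor, and the product of IL1RN occupies that receptor without activating it. IL-18, IL-33 and IL-36γ act through sister receptors of the IL-1 receptor family, whereas IL-6, IL-11 and LIF all signal through the shared subunit gp130 to JAK kinases and STAT3. IL1A, IL1B and IL6 are well-known targets of NF-kB and AP-1 in epithelial cells, and IL-1α and IL-6 are among the factors released by cells that have stopped dividing after DNA damage. ADR breaks DNA and activates p53, a transcription factor that induces CDKN1A and MDM2.

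Stretches before the start sites of IL6, IL1A and IL24 are shown because IL6 and IL1A mark the ends of the range between treated genotypes and IL24 passed 2-fold at a later time in p53-/- than in p53+/+ cells. RefSeq windows of 300 bases, from 250 before to 50 after a start site (assembly GRCh38.p14), were matched for 8 of the 10 genes (12 windows), but not for IL18 and LIF. Each stretch below has 120 bases and ends before the start site. IL6 is at chr7:22727080-22727199 on the plus strand, IL1A at chr2:112784401-112784520 on the minus strand (the lower of its 2 start sites by coordinate), and IL24 at chr1:206897193-206897312 on the plus strand. Capitals mark matches to AP-1 (TGANTCA, where N is any base), NF-kB or a p53 half-site, searched on both strands, none of which overlapped another. Full p53 sites were not searched.
IL6: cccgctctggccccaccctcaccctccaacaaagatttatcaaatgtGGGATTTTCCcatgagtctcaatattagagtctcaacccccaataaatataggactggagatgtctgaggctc
IL1A: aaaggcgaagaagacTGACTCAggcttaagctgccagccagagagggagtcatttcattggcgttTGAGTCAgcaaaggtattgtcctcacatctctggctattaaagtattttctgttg
IL24: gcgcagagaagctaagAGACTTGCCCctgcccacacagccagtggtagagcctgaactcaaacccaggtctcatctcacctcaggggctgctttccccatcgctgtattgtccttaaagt
The capitals in IL6 are an NF-kB match at -73 to -64 from the start site, those in IL1A are AP-1 matches at -105 to -99 and -55 to -49, and those in IL24 are a p53 half-site at -234 to -225. Among 35116 windows of this length, 11.3% held the NF-kB motif, 7.71% the AP-1 motif and 6.63% the p53 half-site. AP-1 matches were also found before IL11, at -96 to -90, and before 1 start site of IL1RN, at -223 to -217. The windows of IL1B, IL33 and IL36G held none of these letters.

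Levels are log2 processed signals scaled so that the 75th percentile of an array is 0; this percentile was 879 to 1199 on the p53-/- arrays, 1015 on the array labelled p53+/+ 0 h and 661 to 818 on the treated p53+/+ arrays. On the p53+/+ 48 h array, which had the lowest percentile, 0 of 10 spike-in probes were well above background, against 6 on each of the other arrays, so falls of IL1RN, IL11 and IL33 at 48 h rest on an array that stands apart. The array labelled p53+/+ 0 h did not stand with the treated p53+/+ arrays. Over 15811 genes its levels correlated at 0.98, 0.99, 0.97 and 0.96 with the p53-/- arrays at 0, 12, 24 and 48 h, and at 0.93, 0.91 and 0.90 with p53+/+ cells at 12, 24 and 48 h. MDM2, which encodes a ligase that degrades p53, had a log2 level of -1.66 on it, against -2.04 to -1.33 in p53-/- cells and 1.29 to 1.76 in treated p53+/+ cells. DCN, which encodes the matrix protein decorin, was at 5.75 on it, 5.70 to 6.07 in p53-/- cells and 2.09 to 2.37 in treated p53+/+ cells. CDKN1A, which encodes the cell cycle inhibitor p21, was at -2.97 in p53-/- cells at 0 h, -1.14 on this array and 2.54 to 2.70 in treated p53+/+ cells. Not all genes stood with p53-/- cells on this array. LIF was at 2.28 on it, -3.71 to 0.20 in p53-/- cells and 1.68 to 1.88 in treated p53+/+ cells. IL1B was at 2.67, -1.39 to 1.24 and 5.64 at most in the same order. A wrong label and untreated p53+/+ cells that resemble p53-/- cells cannot be told apart here, and neither was tested. The label is taken with caution, and the array is called the array labelled p53+/+ 0 h throughout. Changes or 2-fold calls measured from it are also given from the p53-/- 0 h array.

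Markers of cell types separated the same arrays. Of 7 basal epithelial markers, 6 were well above background on all 8 arrays, TP63 being the exception, and their summed signal was 45.4 to 66.6 times the 75th percentile in treated p53-/- cells, 78.1 and 78.9 on the p53-/- 0 h array and the array labelled p53+/+ 0 h, and 174 to 269 in treated p53+/+ cells. Of 4 fibroblast markers, COL3A1 was well above background on no array and DCN on all 8. Their sum was 52.0 to 67.1, 58.1, 54.0 and 4.31 to 5.22 in the same order. DCN had by far the highest level of the 4 on every array, so this sum is in the main that of 1 gene. Of 4 leukocyte markers, 2 (PTPRC and CD14) passed the background criterion on all 8 arrays, and PTPRC had a log2 level of -4.27 to -3.68. CD14 had the highest log2 level of the 4 on every array, 0.78 to 2.59. It differed by -1.07 (adjusted p = 0.0498) between treated p53+/+ and treated p53-/- cells in the limma comparison described below. ITGAM differed by 3.16, but it was well above background only on the 3 treated p53+/+ arrays. It entered the comparison through those arrays, and its p53-/- side is background. The leukocyte sum, in the main that of CD14, was 4.04 to 6.12, 2.69, 2.96 and 2.12 to 3.38. The 2 endothelial markers summed to 0.303 to 0.422, 0.317, 0.328 and 0.110 to 0.143. They did not move together: limma gave -3.54 for PECAM1, which was not well above background on the treated p53+/+ arrays, and 0.22 for CDH5 (adjusted p = 0.44). These differences run alongside every comparison of treated genotypes below, and their part in it was not tested. In bulk RNA, fewer cells of a type and less RNA per cell cannot be told apart.

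Among treated cells, p53+/+ arrays had higher levels of most of these cytokines and a lower level of IL6. IL1A, IL1B, IL18, IL24 and LIF were at least 2-fold higher in p53+/+ than in p53-/- cells at all 3 treated times, which is 5 of the 9 measured genes, where 6.29% of all measured genes were. IL6 was lower at all 3 times, 1 of 9, where 5.74% of all genes were. With the 3 treated times of a genotype standing in for replicates, limma called IL1A, IL1B, IL33 and LIF higher in p53+/+ cells (4 of 9, against 10.6% of 28947 probes) and IL6 lower (1 of 9, against 7.4%), at an adjusted p under 0.05. Counted by gene, limma called 1829 of 15811 measured genes higher and 1476 lower. The median difference of the 9 genes was 2.38 on the log2 scale and that of all measured genes 0.05. The remaining gene, IL36G, was not well above background on any array. The scaling bears on this split: of all probes called, 58.8% were higher in p53+/+ cells, against 48.3% after quantile normalization, 45.7% after median scaling and 14.5% without scaling. Leaving out the scaling moved the median difference of all measured genes to -0.37, -0.52 and -0.76 on the log2 scale at 12, 24 and 48 h, from 0.09, -0.03 and 0.10. Without the 24 h arrays only IL1A passed, 1 of 9, and 292 probes in place of 5201.

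**Figure D1:**
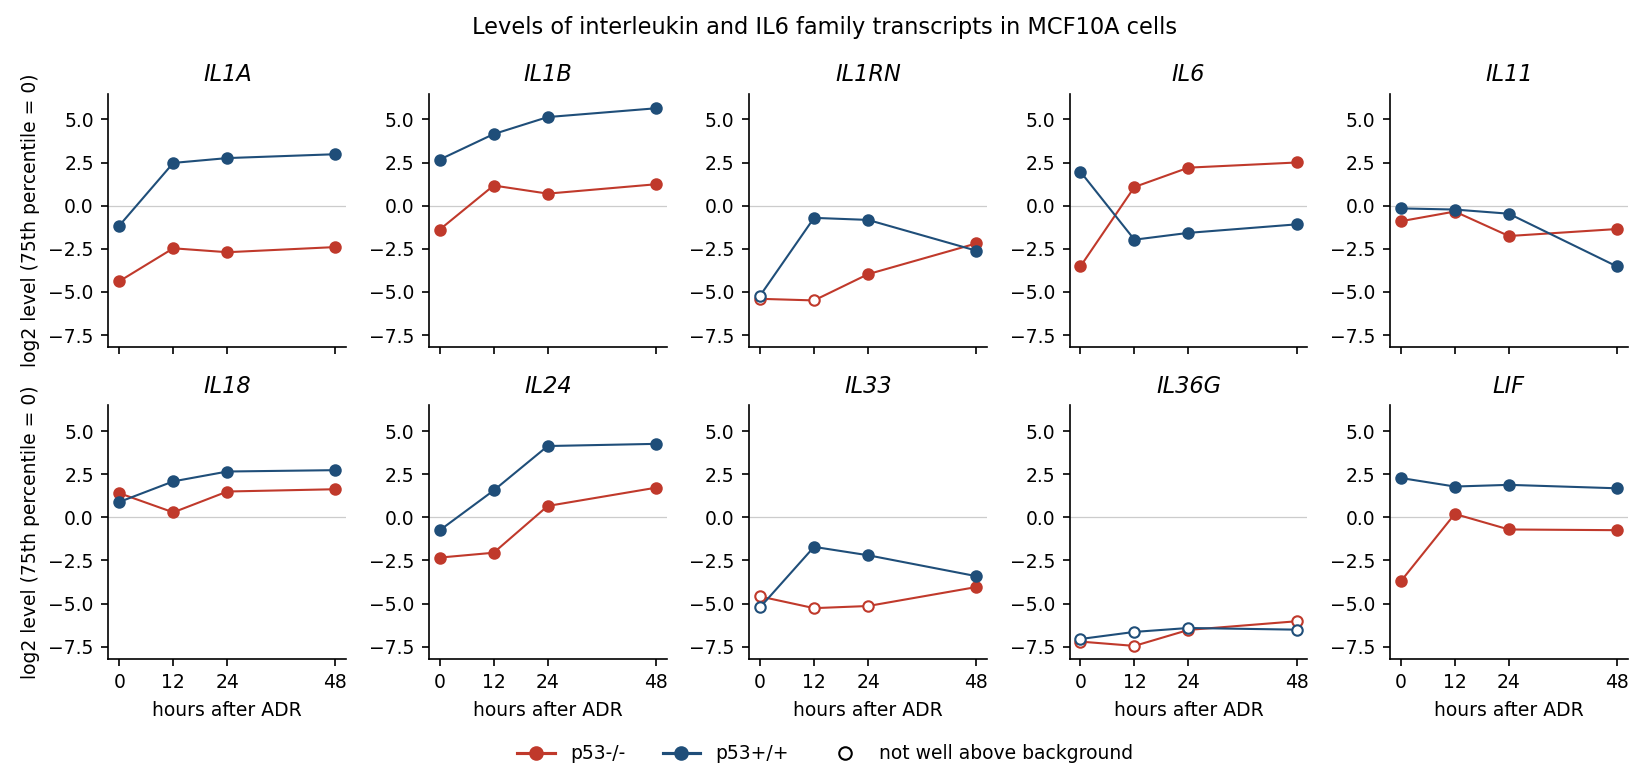
Log2 level relative to the 75th percentile of the array (vertical axis) against hours after ADR (horizontal axis) for the 10 genes, 1 array per point, p53-/- in red and p53+/+ in blue; open circles were not well above background. IL1A, IL1B, IL24 and LIF lie higher in p53+/+ cells at each time, whereas the IL6 lines cross between 0 and 12 h.

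IL1A, which encodes IL-1α, showed the largest difference between treated genotypes of the 10 genes. Log2 levels of IL1A in p53-/- cells were -4.38 before ADR and -2.47, -2.70 and -2.40 at 12, 24 and 48 h. For p53+/+ they were -1.16 on the 0 h array so labelled and 2.48, 2.76 and 2.98 in treated cells. The 4 p53-/- values all lay below the 4 p53+/+ values, and both genotypes reached nearly their full level by 12 h. Treated p53+/+ cells were 30.9-, 43.9- and 41.7-fold higher than p53-/- cells at 12, 24 and 48 h, and the array labelled p53+/+ 0 h was 9.33-fold above the p53-/- 0 h array. The limma difference over the treated arrays was 5.26 on the log2 scale (SE 0.21, adjusted p = 0.00011), and it passed under all 11 alternatives, with adjusted p from 3.5e-06 to 0.021. From 0 h, IL1A was 3.76-, 3.22- and 3.95-fold higher in p53-/- cells. In p53+/+ cells the log2 change was 3.64, 3.92 and 4.14 from the array labelled p53+/+ 0 h, and 6.86, 7.14 and 7.36 from the p53-/- 0 h array. Probes with 10 spots (999 of them) gave these changes a technical SD of 0.04 to 0.09, which covers spots within an array only.

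IL1B, which encodes IL-1β, followed a similar order at every time. Over 0, 12, 24 and 48 h the p53-/- arrays read -1.39, 1.17, 0.70 and 1.24 on the log2 scale. The p53+/+ arrays read 2.67, 4.15, 5.13 and 5.64, the first being the array labelled p53+/+ 0 h. Again no p53-/- value reached the lowest p53+/+ value. IL1B was 7.89-, 21.7- and 21.2-fold higher in treated p53+/+ cells, with a limma difference of 3.94 (SE 0.40, adjusted p = 0.0022). It lost the call without the 24 h arrays (adjusted p = 0.077). The courses had different shapes after 12 h, as the level kept climbing in p53+/+ cells, by 0.99 from 12 to 24 h and 0.51 from 24 to 48 h on the log2 scale, and stayed between 0.70 and 1.24 in p53-/- cells. From 0 h the gene was 5.89-, 4.26- and 6.20-fold higher in p53-/- cells. In p53+/+ cells the log2 change was 1.48, 2.47 and 2.97 from the array labelled p53+/+ 0 h, and 5.54, 6.53 and 7.04 from the p53-/- 0 h array.

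IL1RN, which encodes the IL-1 receptor antagonist, appeared earlier in p53+/+ cells than in p53-/- cells according to its brighter probe. That probe was not well above background on the p53-/- arrays at 0 and 12 h (log2 levels -5.40 and -5.49) or on the array labelled p53+/+ 0 h (-5.22). It reached -3.97 and -2.19 at 24 and 48 h in p53-/- cells. In p53+/+ cells it stood at -0.71 and -0.83 at 12 and 24 h and at -2.61 at 48 h. The genotypes were thus far apart at 12 h, where p53+/+ cells were at least 27.6-fold higher, less so at 24 h (8.84-fold), and close at 48 h, where the log2 difference was -0.42 (technical SD 0.12). A value of the form at least N-fold sets the brighter array against the higher of the dim probe's own signal and the lowest signal well above background on the dimmer array. The limma difference was 2.50 (SE 0.89, adjusted p = 0.10) and did not pass, whereas without the 48 h arrays it was 3.96 with an adjusted p of 0.026. A second probe for the same transcript disagreed: it was well above background on all 8 arrays with log2 levels between -3.97 and -3.38, and its difference was 0.48 (adjusted p = 0.089).

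IL18 encodes a cytokine that, like IL-1β, is stored as a precursor cut by caspase-1. Its log2 level without p53 was 1.40, 0.29, 1.50 and 1.63 over 0, 12, 24 and 48 h, so the only array that stood apart was that at 12 h, 2.16-fold below 0 h. The array labelled p53+/+ 0 h had 0.89 and the treated p53+/+ arrays 2.09, 2.66 and 2.73. All 3 treated p53+/+ values lay above all 4 p53-/- values. The difference between treated genotypes was 3.47-, 2.23- and 2.15-fold, and limma gave 1.35 (SE 0.40, adjusted p = 0.062), which missed the threshold. It passed under 4 of 11 alternatives, among them time point as a block (adjusted p = 0.028). Without scaling, the differences at 24 and 48 h were 0.68 and 0.25 on the log2 scale, below 2-fold.

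IL33, whose product is an alarmin released by damaged epithelium, was well above background on 4 arrays only, p53-/- at 48 h and the 3 treated p53+/+ arrays. The 4 p53-/- arrays, in order of time, had log2 levels of -4.58, -5.26, -5.14 and -4.04. The array labelled p53+/+ 0 h had -5.22, and treated p53+/+ cells had -1.71, -2.20 and -3.41. The level in p53+/+ cells was highest at 12 h and came down from there, and the difference from p53-/- cells went from at least 11.7-fold at 12 h to at least 7.68-fold at 24 h and 1.55-fold at 48 h (0.63 on the log2 scale, and -0.23 without scaling). The limma difference was 2.38 (SE 0.52, adjusted p = 0.025). The call was lost without scaling (adjusted p = 0.062), without the 12 h arrays (0.13), without the 24 h arrays (0.24) and with time point as a block (0.066), and was kept without the 48 h arrays (0.011). For IL36G, which encodes the epidermal cytokine IL-36γ, the processed signal was 5.98 to 18.4 over the 8 arrays, and 1 of its 2 spots was above background on 1 array, p53-/- at 48 h.

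**Figure D2:**
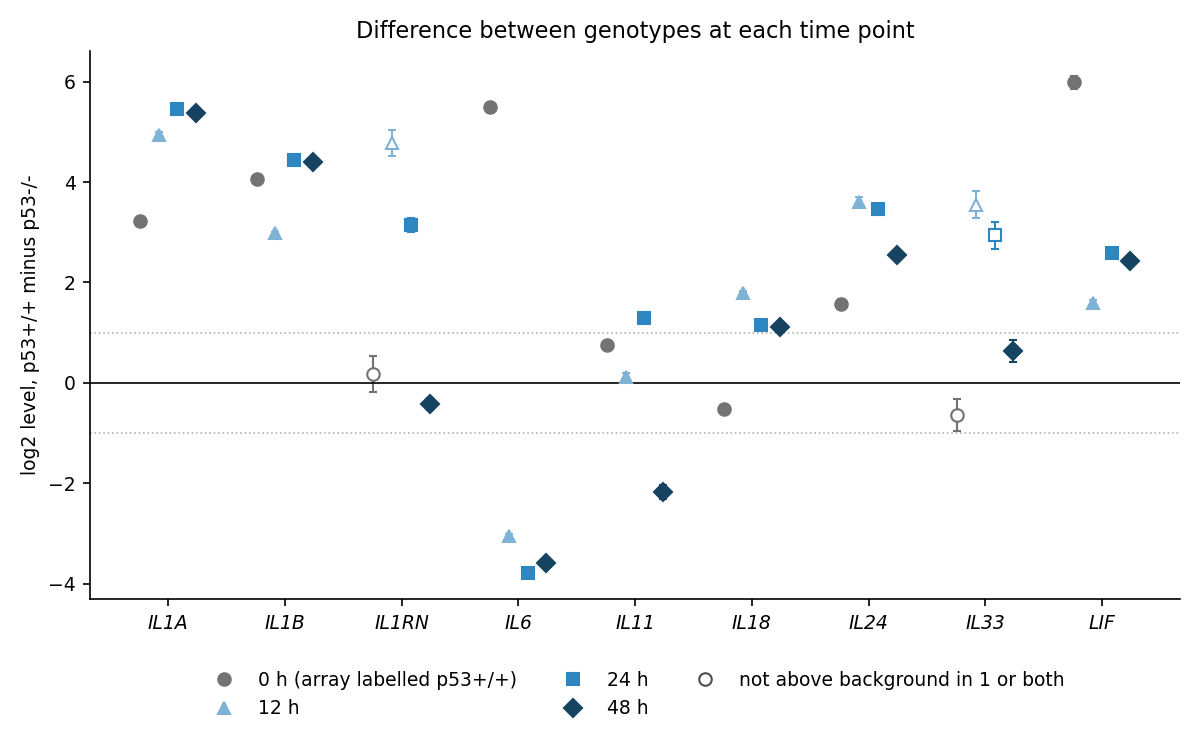
Log2 level in p53+/+ minus p53-/- cells (vertical axis) at each time for the 9 measured genes; bars are the technical SD, dotted lines mark 2-fold, and open symbols had at least 1 array not well above background. IL6 changes sign between 0 h (5.50) and the treated times (-3.05, -3.78 and -3.59), and IL1RN and IL33 come close to 0 at 48 h.

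IL6, the founding cytokine of its family, was the gene of this set that was lower in p53+/+ cells at all 3 treated times. Without p53 the log2 level was -3.52 before ADR and 1.08, 2.20 and 2.50 at 12, 24 and 48 h. The array labelled p53+/+ 0 h had 1.97, and the treated p53+/+ arrays had -1.97, -1.58 and -1.08. IL6 was therefore lowest on the untreated p53-/- array and highest on the treated p53-/- arrays and the array labelled p53+/+ 0 h, with treated p53+/+ cells in between. Treated p53+/+ cells were 8.30-, 13.7- and 12.0-fold lower than treated p53-/- cells at 12, 24 and 48 h, and the limma difference was -3.47 (SE 0.42, adjusted p = 0.0038). This call was lost without the 24 h arrays (adjusted p = 0.10). In p53-/- cells the log2 change of IL6 from 0 h was 4.60, 5.73 and 6.03, the last being 65.1-fold and the largest of the set in these cells.

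For p53+/+ cells the direction of the IL6 change depended on the 0 h array. Against the array labelled p53+/+ 0 h, IL6 was 15.4-, 11.7- and 8.31-fold lower at 12, 24 and 48 h, or -3.94, -3.55 and -3.06 on the log2 scale. Against the p53-/- 0 h array the log2 change was 1.55, 1.95 and 2.44, that is, higher. Both genotypes shared a climb within the treated times, of 1.12 and 0.30 on the log2 scale from 12 to 24 h and 24 to 48 h in p53-/- cells and of 0.40 and 0.49 in p53+/+ cells. The probes for IL6, IL1A, IL1B and IL18 were printed in 10 spots. The SD over the 7 to 10 spots used was 0.03 to 0.24 on the log2 scale. Steps between treated times compare means over spots. A small one, 0.08 for IL18 from 24 to 48 h in p53+/+ cells, had a technical SD of 0.03, which does not cover variation between samples.

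**Figure D3:**
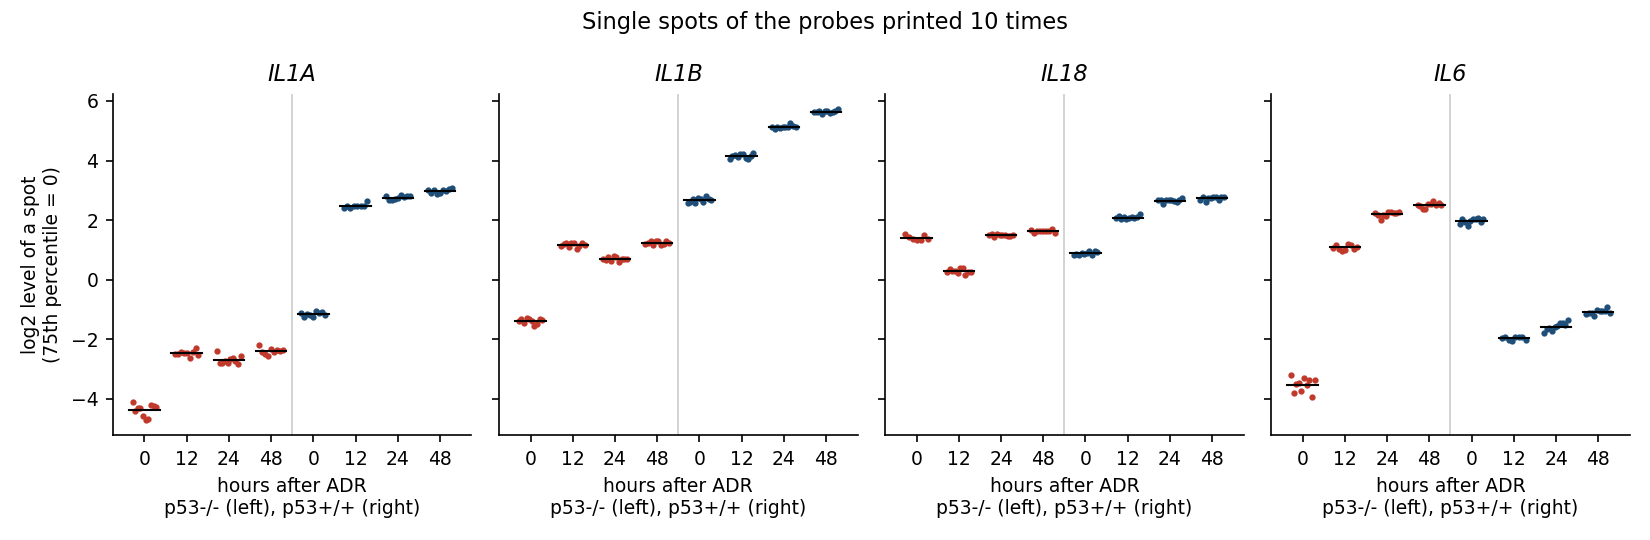
Log2 level of each single spot (points) and their mean (black line) on the 8 arrays, at 0, 12, 24 and 48 h in p53-/- cells (red, left) and p53+/+ cells (blue, right), for the 4 genes printed in 10 spots. Spots of an array lie close together, with SDs of 0.03 to 0.24, which covers variation within an array and not between samples.

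LIF, which encodes leukemia inhibitory factor, a ligand of gp130 with LIFR, was nearly flat over the p53+/+ arrays. The array labelled p53+/+ 0 h had a log2 level of 2.28, and the treated ones had 1.79, 1.88 and 1.68. The p53-/- arrays went from -3.71 before ADR to 0.20, -0.70 and -0.74. Every p53+/+ value lay above every p53-/- value, and the gap was widest at 0 h, where it was 63.6-fold. Treated p53+/+ cells were 3.01-, 6.01- and 5.38-fold higher, with a limma difference of 2.20 (SE 0.29, adjusted p = 0.0049) that did not pass without the 24 h arrays (adjusted p = 0.11). From 0 h, LIF was 15.0-, 8.04- and 7.82-fold higher in p53-/- cells. In p53+/+ cells the log2 change was -0.50, -0.40 and -0.60 from the array labelled p53+/+ 0 h and 5.50, 5.59 and 5.39 from the p53-/- 0 h array. A second, dimmer probe was well above background on 2 arrays only, the array labelled p53+/+ 0 h and p53+/+ at 48 h. It entered the limma comparison through those arrays, and its p53-/- side is background. Its difference between treated genotypes was 1.16 (SE 0.30, adjusted p = 0.043).

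IL11, another gp130 ligand, showed its widest change on the p53+/+ 48 h array, the one on which none of the spike-in probes was above background. The p53-/- log2 levels over 0, 12, 24 and 48 h were -0.90, -0.34, -1.76 and -1.35. Those of p53+/+ were -0.16, -0.23, -0.47 and -3.52, the first from the array labelled p53+/+ 0 h. Each of the first 3 p53+/+ values lay above the p53-/- value of its time, although at 12 h the difference of 0.11 on the log2 scale turned to -0.15 with median scaling and -0.34 without scaling, and the last lay below every other value. p53+/+ cells were 2.45-fold higher at 24 h and 4.50-fold lower at 48 h, so the difference changed sign within the treated times. The limma difference was -0.25 (SE 0.90, adjusted p = 0.88), and it was 0.70 without the 48 h arrays. At 48 h in p53+/+ cells, IL11 was 10.3-fold below the array labelled p53+/+ 0 h and -2.62 on the log2 scale from the p53-/- 0 h array.

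IL24, of the IL-10 family, was 2-fold above 0 h in p53-/- cells from 24 h on and in p53+/+ cells from 12 h on. Log2 levels in p53-/- cells were -2.33 at 0 h, -2.05 at 12 h, 0.66 at 24 h and 1.72 at 48 h. The array labelled p53+/+ 0 h had -0.76, and p53+/+ cells had 1.56, 4.13 and 4.26 after ADR. Between 12 and 24 h the level went up 6.54-fold in p53-/- and 5.96-fold in p53+/+ cells. At 12, 24 and 48 h the gene was 12.2-, 11.1- and 5.82-fold higher in p53+/+ cells. The spread over the treated times was wide in both genotypes, and limma gave 3.21 (SE 1.12, adjusted p = 0.096), or 3.21 with an adjusted p of 0.0080 when time point was a block. From 0 h, IL24 was 1.22-, 7.96- and 16.6-fold higher in p53-/- cells. In p53+/+ cells the log2 change was 2.31, 4.89 and 5.02 from the array labelled p53+/+ 0 h, and 3.89, 6.47 and 6.59 from the p53-/- 0 h array. A second probe in 1 spot gave a difference of 3.12 (adjusted p = 0.096).

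Counted over time, IL1A, IL1B, IL6 and LIF were at least 2-fold above 0 h at all 3 times in p53-/- cells, 4 of 9 where 2.59% of all measured genes were, and none of the 9 was 2-fold lower at all 3 times (2.04% of all genes). In p53+/+ cells, measured from the array labelled p53+/+ 0 h, IL1A, IL1B, IL1RN, IL18, IL24 and IL33 were higher, 6 of 9 against 8.21% of all genes, and IL6 was lower, 1 of 9 against 6.23%. From the p53-/- 0 h array, IL1A, IL1B, IL1RN, IL6, IL24, IL33 and LIF were higher in p53+/+ cells, 7 of 9 against 8.13% of all genes, and none was lower (6.64%). Before treatment, IL1A, IL1B, IL6, IL24 and LIF were at least 2-fold higher on the array labelled p53+/+ 0 h than on the p53-/- 0 h array, 5 of 9 against 3.33% of all genes, and none was lower (4.45%). The change with treatment was set against genotype in a limma interaction over all 8 arrays, which has no other untreated p53+/+ array to rest on. IL6 (-8.97, SE 0.84, adjusted p = 0.012) and LIF (-3.79, SE 0.58, adjusted p = 0.036) passed, 2 of 9 against 0.746% of probes, and both values rest on the array labelled p53+/+ 0 h. When both genotypes are measured from untreated p53-/- cells, the difference is that between the treated arrays, which stays negative for IL6 (-3.47) and turns for LIF (2.20). No gene of the set passed in the other direction (0.94% of probes), IL1A giving 2.04 (adjusted p = 0.070). With limma, 4 of the 9 had an unadjusted p under 0.05, where 4949 of 28947 probes had. They were IL6 and LIF and, in the other direction, IL1A and IL33. IL6 alone passed when the 12 h arrays were left out, and neither did when the arrays of 24 h or those of 48 h were.

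Receptors of these cytokines were called in both directions. Of 16 measured receptor and decoy genes, limma called 2 higher and 4 lower in treated p53+/+ cells, where 10.6% and 7.4% of all probes were. By gene, 1829 and 1476 of all 15811 measured genes were, and the 2 higher receptor genes lie near that share. The median difference of the 16 was -0.37 on the log2 scale. IL1R2, a decoy receptor that binds IL-1 without signalling, had log2 levels of -0.59, -0.72 and 0.03 in treated p53-/- cells and -5.97, -4.57 and -3.13 in treated p53+/+ cells, where the first 2 were not well above background. Its difference was -4.13 (SE 0.68, adjusted p = 0.011), whereas the signalling receptor IL1R1 gave -0.67 (adjusted p = 0.31). IL1RL1, the receptor for IL-33, differed by -2.47 (adjusted p = 0.022), and IL18R1, the ligand-binding chain for IL-18, by -1.77 (adjusted p = 0.012). IL18RAP, the other IL-18 receptor chain, went the other way, by 1.50 (adjusted p = 0.054), and was not called. In treated p53+/+ cells IL18R1 was not well above background at any time, and IL1RL1 was not at 24 h. SIGIRR, an inhibitory member of the receptor family, gave -1.70 (adjusted p = 0.048). IL1RAP, the shared accessory chain, and IL6R, the chain that binds IL-6, were higher by 0.90 (adjusted p = 0.044) and 1.02 (adjusted p = 0.013). The gp130 gene IL6ST gave -0.44 (adjusted p = 0.15) and LIFR 0.75 (adjusted p = 0.12). In p53-/- cells IL1R1 and IL1RL1 were at least 2-fold below 0 h at all 3 times, and IL22RA1, the IL-22 and IL-24 receptor chain, was above it. From the array labelled p53+/+ 0 h, IL1R2, IL1RL1, IL18R1 and SIGIRR were lower and IL22RA1 higher at all 3 times in p53+/+ cells. That is 4 of 16 lower, against 6.23% of all genes, and 1 of 16 higher, against 8.21%. Each of them also passed 2-fold in the same direction from the p53-/- 0 h array, and IL1R1 was lower from that array as well.

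Of 8 measured genes for processing of IL-1β and IL-18, limma called 3 higher and 1 lower in treated p53+/+ cells (10.6% and 7.4% of all probes). CASP1, the caspase that cuts both precursors, was at 0.54, 1.31 and 1.46 in treated p53-/- and 2.34, 2.41 and 2.18 in treated p53+/+ cells, a difference of 1.21 (SE 0.28, adjusted p = 0.029). NLRP3, an inflammasome sensor, gave 2.28 (adjusted p = 0.040) and GSDMD, the pore-forming gasdermin D, gave 1.53 (adjusted p = 0.013). PYCARD, the adaptor that links sensor and caspase, differed by -1.67 (adjusted p = 0.0078). AIM2, a sensor of DNA, was not well above background at 0 h in p53-/- cells and had log2 levels of -4.88, -2.94 and -3.35 after ADR, or at least 1.29-, 4.95- and 3.70-fold above 0 h. From the array labelled p53+/+ 0 h, CASP1, NLRP1 and NLRP3 were more than 2-fold higher at all 3 times in p53+/+ cells. That is 3 of 8, against 8.21% of all genes. PYCARD was lower, 1 of 8 against 6.23%. Measured from the p53-/- 0 h array, CASP1, NLRP3 and PYCARD still passed at all 3 times. NLRP1 did not, with a log2 level of -3.63 on that array and -2.48, -2.64 and -2.88 in treated p53+/+ cells. None of 8 measured genes of IL-1 receptor signalling was called by limma or passed 2-fold at all 3 times in either genotype. Among them, MYD88 gave -0.47 (adjusted p = 0.17) and IRAK1 -0.39 (adjusted p = 0.25). At an unadjusted p under 0.05 in limma, 1 was higher and 1 lower in treated p53+/+ cells. Over both directions, 9850 of 28947 probes had such a p. Of 9 genes of gp130 signalling, STAT3 was higher by 0.93 (adjusted p = 0.023) and PIAS3, an inhibitor of STAT3, by 0.86 (adjusted p = 0.024), while SOCS3, a feedback inhibitor, gave -0.83 (adjusted p = 0.14).

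Among 27 other interleukins and IL6 family genes, 16 were measured. Of these, limma called 4 higher and none lower in treated p53+/+ cells, against 10.6% and 7.4% of all probes. At an unadjusted p under 0.05 in limma, 8 were higher and 1 lower, where 9850 of 28947 probes had such a p over both directions. IL20, a close relative of IL24, was well above background on 4 arrays. It gave log2 levels of -1.58, -1.05 and -2.71 in treated p53+/+ cells, against -6.42, -5.06 and -5.05 in treated p53-/- cells. The difference was 3.73 (SE 0.54, adjusted p = 0.0071). EBI3, a subunit of IL-27 and IL-35, gave 2.58 (SE 0.29, adjusted p = 0.0028). IL7 gave 0.93 (adjusted p = 0.0495). IL12A, which encodes a chain of IL-12 and IL-35, entered the comparison only through the p53+/+ arrays at 12 and 24 h, the 2 on which it was well above background (-3.84 and -3.77). From the array labelled p53+/+ 0 h, IL7, IL20, IL23A, CTF1 and EBI3 were at least 2-fold higher at all 3 times in p53+/+ cells. That is 5 of 16, against 8.21% of all genes, and none was lower (6.23%). These 5 genes also passed 2-fold at all 3 times from the p53-/- 0 h array. IL32 was at least 2-fold above 0 h at all 3 times in p53-/- cells, at -1.24 at 0 h and 1.30, 1.72 and 1.66 afterwards, and its difference between treated genotypes was 0.15 (adjusted p = 0.76).

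**Figure D4:**
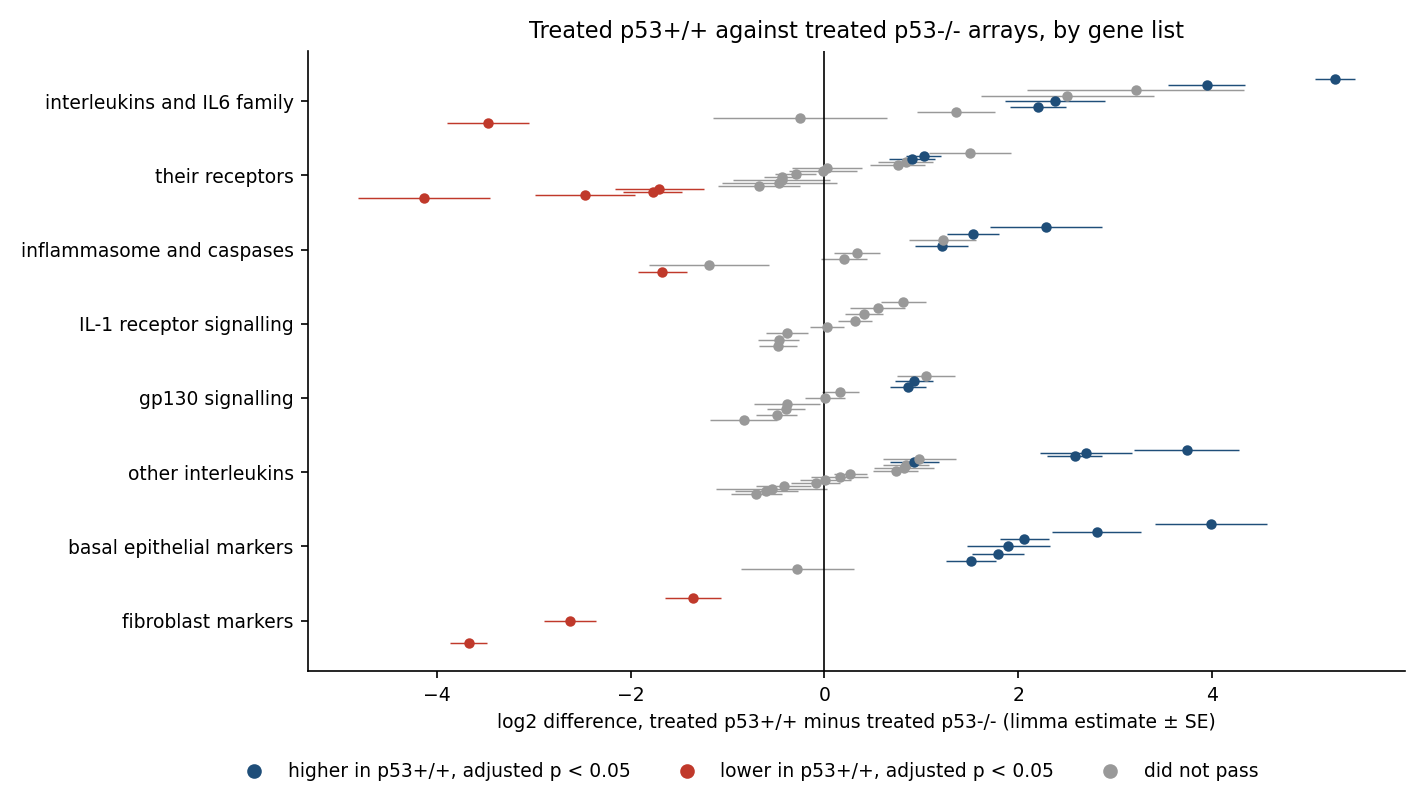
Log2 difference between treated p53+/+ and treated p53-/- arrays (horizontal axis, limma estimate with SE) for each measured gene, grouped by list. Blue and red points passed an adjusted p of 0.05 upwards and downwards. The interleukins reach from -3.47 (IL6) to 5.26 (IL1A), IL-1 receptor signalling genes stay in grey, the fibroblast markers lie below 0, and the basal epithelial markers lie above 0 except TP63 (-0.28).

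The genes whose levels ran most like those of IL1A over the 8 arrays, among 13762 genes above background on at least 4, were TNFRSF10A, SH3BGRL2 and AEN, each with a Pearson r of 0.99. For IL6 they were ZBTB21 (0.98), H3C3 (0.97) and GATA6 (0.97), and for IL1B PANX1 (0.99), EGLN3 (0.99) and MRPL14 (0.99). The most similar gene was CCR7 for IL1RN (0.99), MIER1 for IL18 (0.99), C6orf132 for IL24 (0.98), KLHDC8B for IL33 (0.98), ARPC1B for LIF (0.98) and CSE1L for IL11 (0.96). Within the set, IL1A and IL1B gave 0.98, IL1RN and IL33 0.92, and IL18 and IL24 0.90. IL6 gave values from -0.56 (with IL33) to 0.19 (with LIF). These values describe 8 arrays that share 2 genotypes and the same scaling, with the treated p53+/+ arrays apart from the rest.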

How the data were processed

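RNA of 8 samples was hybridised to single-colour Agilent arrays. The authors deposited scanner output of Feature Extraction 10.7.3.1, whose processed signal per spot is an intensity that this software had corrected for background; the paper's methods name no normalization between arrays. The deposited series table held the same intensities (503808 of 503808 equal). Control spots and outlier spots were left out, log2 signals were taken minus the 75th percentile of each array, and spots of a probe were averaged. Probes were named by accession through RefSeq (GRCh38.p14), 64.2% of 42391 probes, and the probe with the highest mean stood for a gene. Well above background means that most spots of a probe were flagged so by that software. Probes above background on any array (28947) were fitted with limma 3.58.1 (R 4.3.3), with 4 residual degrees of freedom and Benjamini-Hochberg adjustment. Time points stand in for replicates, so p-values measure the difference against movement over time. On simulated data with 28947 probes the treated comparison found 59% of log2 differences of 2 and 90% of those of 4 (8 false calls), and the interaction 1% and 39% (4 false calls). The simulation changed 100 probes by each size and drew noise independently for each array. The real treated comparison called 5201 probes over ordered times, so these rates need not hold for it. Genes and lists were chosen with earlier results of these data known. Named besides the 10 genes were list genes past 2-fold at all 3 times or called by limma, at most 6 per list, plus some genes near the threshold or central to a list, chosen after their values were seen, and the 3 genes most alike in level per member, of which the first is given for 6 of them. Alternatives were quantile, median or no scaling, normexp background correction (offset 50), the mean of all probes, other filters, a 3-fold rule, at least 2 of 3 times, time point as a block, each treated time left out, and the p53-/- 0 h array as baseline. Some genes of the lists are not reported here. The number of arrays limits the precision. Python 3.11.15 was used.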

Additional observations from a re-analysis of the deposited data

Results flagged for a closer look

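For 2 genes the change after ADR differed between genotypes in the limma interaction, the change in p53+/+ minus that in p53-/- cells. IL6 gave -8.97 on the log2 scale (adjusted p = 0.012; adjusted p from 0.0025 to 0.20 over 11 alternatives, 9 of which passed), with treated p53-/- arrays above their 0 h array at 3 of 3 times and treated p53+/+ arrays below the array labelled p53+/+ 0 h at 3 of 3. LIF gave -3.79 (adjusted p = 0.036; 0.015 to 0.26 over 11 alternatives, 6 of which passed), with p53-/- cells 7.82- to 15.0-fold above 0 h and p53+/+ cells within 0.60 on the log2 scale of the array labelled p53+/+ 0 h. Both values use that 1 array, on which IL6 was 45.1-fold and LIF 63.6-fold above the p53-/- 0 h array. When both genotypes are measured from untreated p53-/- cells, the differences are -3.47 for IL6 and 2.20 for LIF, so the sign for LIF turns. The second LIF probe, whose p53-/- side is background, gave an interaction of -0.49 (adjusted p = 0.73).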

How the results depend on the processing

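Every group holds 1 array, so replicate numbers pair nothing; time point as a block pairs the genotypes by time and called 6 genes between treated genotypes. Of the 9 measured genes, 5 differed between treated genotypes by limma. This count was 8 with normexp background correction and 1 without the 24 h arrays, and 4 to 6 under the 9 other alternatives. The 2 genes with a significant interaction became 1 with the mean of all probes, 1 without the 12 h arrays, 1 with time point as a block, and 0 without the 24 h or 48 h arrays, where 3 and 5 genes had an unadjusted p under 0.05 with limma. Under the 6 others it was 2 or 3. Counts of genes changed over time stayed within 1.5 times, at 3 to 6 in p53-/- cells (4) and 5 to 7 in p53+/+ cells (7). Signs turned for IL11 between treated genotypes (0.011 with normexp and 0.70 without the 48 h arrays, against -0.25), for the IL1B interaction (0.056 with normexp and 0.36 without the 12 h arrays, against -0.12), and, in p53+/+ cells from the p53-/- 0 h array, for IL6 (1.55, 1.95 and 2.44), LIF (5.50, 5.59 and 5.39, against -0.50, -0.40 and -0.60) and IL11 at 12 and 24 h (0.68 and 0.44, against -0.07 and -0.31). Apart from the sign changes, 17 of 97 treated comparisons and 9 of 97 interactions of single genes crossed the threshold. Over all probes, calls between treated genotypes were 5201, against 9393 without scaling, 9894 with normexp (73.3% higher), 12536 with no filter on dim probes (78.4% higher), and 2670, 292 and 2571 without the 12, 24 and 48 h arrays. Interaction calls were 488, against 1296 without scaling, 1251 with normexp, 60 with time point as a block, and 42, 0 and 0 without the 12, 24 and 48 h arrays (3063 and 5274 at an unadjusted p under 0.05 in the last 2). The cause was not tested. Signals near background limit IL33, IL1RN and IL36G.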
